A study of Mus musculus with 2 samples.

Results

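The genes described here are the mouse genes of the major histocompatibility complex (MHC) and of the machinery that loads peptides onto its products, in cultured hepatoblasts at passage 20 and passage 5. A gene was included when the name the array gives it starts with H2-, the prefix of the mouse MHC, or is B2m, Tap1, Tap2, Tapbp, Tapbpl, Cd74, Ciita, Nlrc5, Erap1 or Cd1d1. The rule found 49 genes of the 27366 gene names on the array, represented by 76 of 41158 probes and by 121 spots, and no measured value entered it. Of the 49 genes, 41 lie on chromosome 17, where the mouse MHC is. The cells were expandable hepatoblasts, liver progenitor cells that can give rise to hepatocytes and bile duct cells, grown from C57BL/6 mouse liver. RNA from passage 20 cells and from passage 5 cells was measured on Agilent mouse arrays of 1 colour (Cy3), with 1 array for each passage. Cells of both passages grew in DMEM/F12 with insulin, transferrin, selenite, nicotinamide, a stable ascorbic acid derivative, albumin, antibiotics, EGF, the GSK3 inhibitor CHIR99021, the TGF-beta receptor inhibitor E-616452, and the lipids LPA and S1P, on Matrigel or laminin. The passages came from separate experiments, so passage and experiment cannot be told apart, and with 1 array each no difference below has a replicate check, an error or a test.

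MHC class I molecules are made by nearly every nucleated cell. Each consists of a heavy chain, the light chain beta-2-microglobulin and a short peptide that was cut by the proteasome, pumped into the endoplasmic reticulum by the TAP transporter and fitted by tapasin and its partners. Class II molecules are made mainly by professional antigen presenting cells and carry peptides from the endosomal pathway, and both classes are raised by interferons through the transactivators NLRC5 (class I) and CIITA (class II). In resting liver, hepatocytes carry little class I and no class II, while Kupffer cells, dendritic cells and sinusoidal endothelium carry both.

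Levels are given as the scanner's processed signal and on the log2 scale relative to the array's 75th percentile, which was a signal of 852.902 at passage 20 and 1084.8 at passage 5. A difference is the log2 level at passage 20 minus that at passage 5, and a gene is represented by its brightest probe. A probe was called measured when it was well above background on at least 1 array, by the scanner software's flag. Signals of different probes are not comparable, because each binds its target differently. The flag was set for 46.1% of all probes at passage 20 and for 45.5% at passage 5, and no spot of a gene probe was saturated. Among 114 probes with at least 8 spots, all above background, the median standard deviation between spots was 0.058 at passage 20 and 0.053 at passage 5. That spot error corresponds to 0.080 for a difference between single spots, and it covers spots within an array only.

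The classical class I heavy chain genes, the light chain gene and 4 of 5 loading genes were above background at both passages, whereas 10 of 11 class II genes, Cd74 included, were above background at neither. Of the 49 genes, 24 were measured (49.0%), against 58.7% of the 20093 genes on the array that RefSeq names. All but 1 of the 24 measured genes were above background at both passages, the exception being Tap2, which was above background at passage 5 only. The other 25 genes were above background on neither array. Tap1 alone of the 24 differed by 2-fold or more, being 2.22-fold lower at passage 20, and no gene was 2-fold higher. Across all 11803 named genes that were measured, 9.01% differed by 2-fold or more: 5.74% were at least 2-fold lower and 3.28% at least 2-fold higher at passage 20. The differences leaned to one side: 19 of the 24 were below 0, against 42.4% of all named genes. The median of the 24 was -0.19, against 0.07 for all named genes. The 19 include Tap2, whose value is a bound, and H2-Ke2 (-0.01) and H2-Q2 (-0.02), which lie within the spot error of 0.080. They also include H2-Ke6, which like H2-Ke2 has functions other than antigen presentation. The genes are not independent readings, since several probes share most of their bases, and no test was made of this lean.

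**Figure D1:**
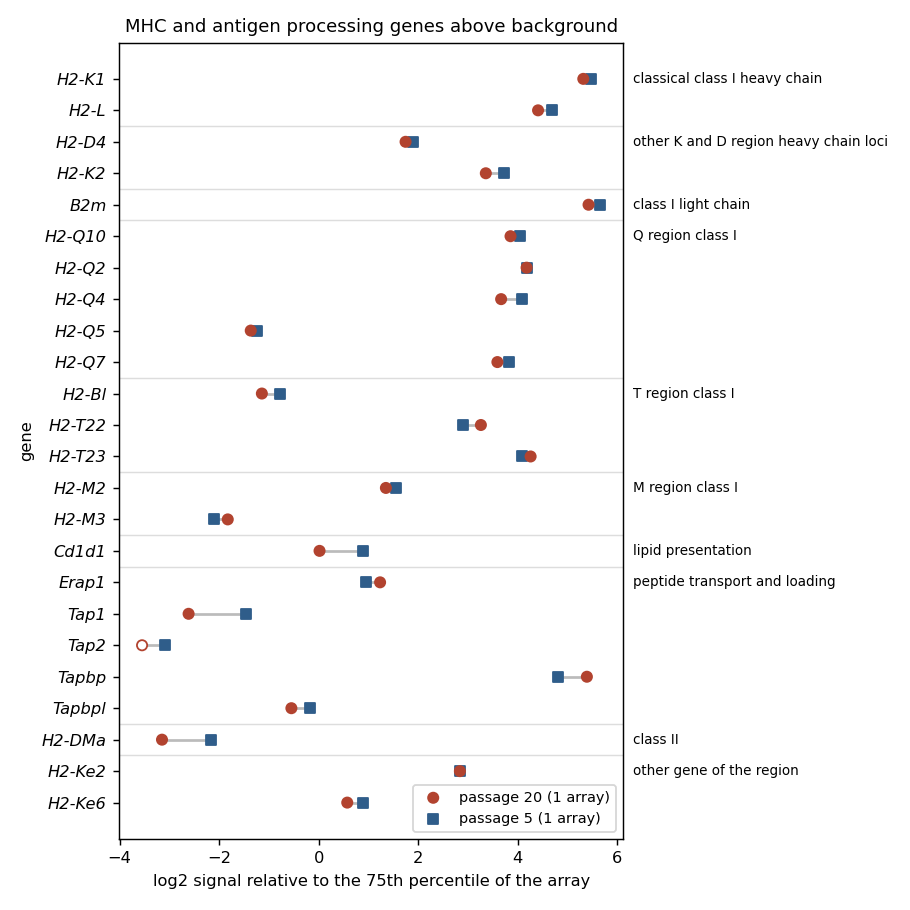
Log2 level relative to the 75th percentile of the array for the 24 measured genes, one row per gene, with passage 20 and passage 5 as separate points and the genes grouped by role. An open circle marks a level that was not well above background, which applies to Tap2 at passage 20. Levels of different genes come from different probes and are not comparable. In most rows the points lie close together, and the widest gaps belong to Tap1 (-1.15), H2-DMa (-0.98) and Cd1d1 (-0.88).

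The light chain and the classical heavy chains were bright at both passages and, under the scaling used here, slightly lower at passage 20. B2m, the beta-2-microglobulin gene that every class I molecule needs, had a signal of 36538 at passage 20 and 54744 at passage 5, a difference of -0.24. H2-K1, a classical heavy chain that presents peptides to CD8 T cells, had 33959 at passage 20 and 47905 at passage 5, a difference of -0.15. The array names its probes for the D end of the complex H2-L, and both list the accession of H2-D1, the classical heavy chain of that end. H2-L had 18090 at passage 20 and 28016 at passage 5, a difference of -0.28. That probe also lists H2-Q2, and the H2-L probe that lists H2-D1 alone gave -0.42. In each case the raw signal was clearly dimmer at passage 20. Under the scaling used here the differences were between 1.11-fold and 1.22-fold, but their size depended on the scaling. When the arrays were scaled to the spike-in RNAs, B2m was at -0.45, H2-K1 at -0.36 and H2-L at -0.50. When each array was centred on its median, B2m was at -0.55, H2-K1 at -0.46 and H2-L at -0.59.

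Other probes of these genes gave the same sign. The measured probes of B2m ran from -0.28 to -0.24, those of H2-K1 from -0.47 to -0.15 and those of H2-L from -0.42 to -0.28. A further B2m probe had 9 spots after those flagged as outliers were left out. They averaged 3.34 ± 0.21 at passage 20 and 3.63 ± 0.23 at passage 5 (SD over spots of 1 array) and overlapped between the arrays. The H2-K1 probe was printed as 10 spots, which averaged 5.32 ± 0.06 at passage 20 and 5.46 ± 0.07 at passage 5. Of its 10 passage 20 spots, 7 lay below the lowest passage 5 spot, so these groups of spots also overlapped. The remaining loci of the K and D regions were H2-K2, with 8738 at passage 20 and 14224 at passage 5 (-0.36), and H2-D4, with 2858 at passage 20 and 4035 at passage 5 (-0.15).

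**Figure D2:**
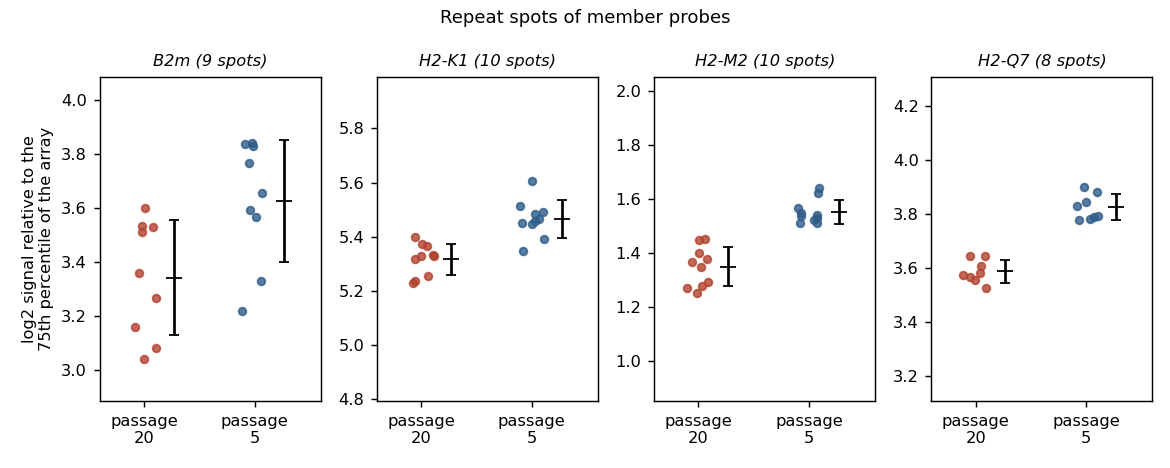
Log2 levels of the single spots of measured probes with 8 or more spots, passage 20 left of passage 5, with the mean and standard deviation over spots of 1 array. Spots flagged as outliers were left out. The spots of H2-Q7 and H2-M2 do not overlap between the arrays and lie lower at passage 20, whereas those of B2m and H2-K1 overlap.

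The Q region holds nonclassical class I genes close to the D end. All but 1 of its 6 genes were measured, and the 5 differences were all below 0 and at most 1.33-fold. H2-Q4 had 10816 at passage 20 and 18305 at passage 5 (-0.41), the largest difference of the region. H2-Q7, which together with its near copy H2-Q9 encodes the Qa-2 antigen, had 10267 at passage 20 and 15381 at passage 5 (-0.24). Its 8 repeat spots, counted after spots flagged as outliers were left out, averaged 3.59 ± 0.04 at passage 20 and 3.83 ± 0.05 at passage 5. These 8 did not overlap between the arrays. H2-Q10, which encodes a secreted class I protein made chiefly in liver, had 12326 at passage 20 and 17808 at passage 5 (-0.18). That probe also lists accessions of other class I genes. The 3 further measured probes, which list H2-Q10 alone, were above background at both passages and ran from -0.20 to 0.24, so the direction of H2-Q10 depended on the probe.

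H2-Q2 had 15421 at passage 20 and 19858 at passage 5, a difference of -0.02, and its probes ran from -0.02 to 0.08. H2-Q5 had 331 at passage 20 and 457 at passage 5 (-0.12). H2-Q1 did not exceed background on either array, with signals of 53.5 at passage 20 and 70.8 at passage 5.

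Probe sequences show how closely these readings are tied. The pairs below are shown because the probes of different genes share most of their bases, and capitals mark the bases that differ where the probes of a pair are aligned. All are 60 bases long, are written 5′ to 3′ as the scanner files give them, and have mm9 positions from those files. The first pair is H2-Q2 at chr17:35482113-35482172 on the plus strand and H2-L at chr17:35403132-35403191 on the plus strand.
H2-Q2: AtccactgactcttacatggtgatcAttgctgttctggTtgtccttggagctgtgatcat
H2-L: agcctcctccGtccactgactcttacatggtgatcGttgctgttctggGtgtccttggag
They are identical at 47 of 50 aligned bases. The second pair is H2-T23, whose listed span is chr17:36167338-36167574 on the minus strand, and H2-Q7, whose span is chr17:35579687-35579918 on the plus strand. Both spans are longer than the probe, as for a probe that crosses a splice junction, which held for 17 of the 76 probes.
H2-T23: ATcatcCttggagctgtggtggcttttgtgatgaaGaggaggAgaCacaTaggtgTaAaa
H2-Q7: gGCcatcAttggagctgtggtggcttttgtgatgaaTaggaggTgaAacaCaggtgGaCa
They are identical at 50 of 59 aligned bases, and their differences had opposite signs, 0.18 for H2-T23 and -0.24 for H2-Q7. The H2-Q10 probe, at chr17:35610210-35610269 on the plus strand, is shown because the array annotates it with accessions of H2-D1, H2-Q10 and H2-T-ps.
H2-Q10: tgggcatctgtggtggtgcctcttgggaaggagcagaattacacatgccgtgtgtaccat
A transcript of any of these genes may add to its signal, and how much each contributed was not tested. The H2-Q7 probe likewise lists both H2-Q7 and H2-Q9.

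The T region genes did not move to one side. H2-T23 encodes Qa-1, which presents leader peptides of other class I chains to the CD94/NKG2 receptors of natural killer cells. It had 16307 at passage 20 and 18319 at passage 5, a difference of 0.18 after scaling. That sign depended on the scaling: it was -0.13 when each array was centred on its median and -0.03 when the arrays were scaled to the spike-in RNAs. H2-T22, a ligand of some gamma delta T cell receptors, had 8158 at passage 20 and 8100 at passage 5, a difference of 0.36. Its other measured probes reached down to -0.45, so no direction can be given for it. H2-Bl had 386 at passage 20 and 636 at passage 5 (-0.37), and its other probes were above background on neither array. The measured H2-Bl probe is identical at 46 of 59 aligned bases to an H2-K1 probe that gave -0.32. H2-T3, H2-T18 and H2-T24 were above background on neither array.

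Of the 11 M region genes, 2 were measured. H2-M3 encodes a class I molecule specialised for peptides that begin with formylmethionine, as bacterial and mitochondrial peptides do. Its signal was 240 at passage 20 and 251 at passage 5, a difference of 0.28 that became -0.03 under median centring. H2-M2 had 2173 at passage 20 and 3183 at passage 5 (-0.20). Its 10 repeat spots averaged 1.35 ± 0.07 at passage 20 and 1.55 ± 0.04 at passage 5 without overlap. The 9 unmeasured genes were H2-M1, H2-M9, H2-M11 and the 6 genes H2-M10.1 to H2-M10.6, a family known chiefly from the vomeronasal organ. Over all regions, 14 of 27 heavy chain genes were measured. Of these, 11 lay below 0 and 3 above it, with a median of -0.17.

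Cd1d1, on chromosome 3 and outside the MHC, encodes the class I-like molecule that shows lipids to natural killer T cells, which are abundant in mouse liver. Its signal was 862 at passage 20 and 2013 at passage 5, and it was 1.84-fold lower at passage 20 (-0.88). The gap was larger than that of any class I heavy chain gene, and it rests on 1 probe with 1 spot per array. At least 1.5-fold lower levels were found for 11.8% of all named genes and for Cd1d1, H2-DMa and Tap1 among the 24.

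**Figure D3:**
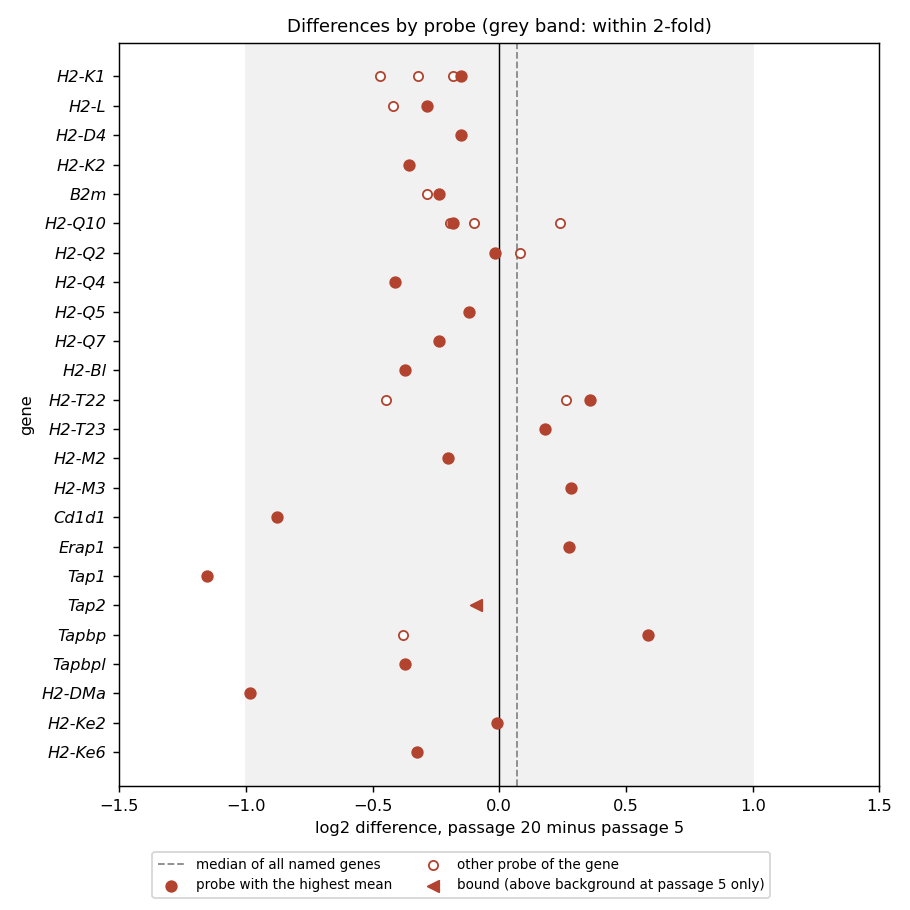
Difference in log2 level, passage 20 minus passage 5, of every measured probe of each gene, with the gene's brightest probe filled and its other probes open. The grey band covers differences within 2-fold, the dashed line is the median of all named genes, and the triangle of Tap2 is a bound. Only Tap1 lies outside the band. The probes of H2-Q10, H2-Q2, H2-T22 and Tapbp fall on both sides of 0. Under median centring the brightest probes of Erap1, H2-M3 and H2-T23 also turn below 0.

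The genes of peptide transport and loading were all measured and did not move together. Tap1 encodes one subunit of the TAP transporter, which pumps peptides into the endoplasmic reticulum. Its signal was 139 at passage 20 and 394 at passage 5, and it was 2.22-fold lower at passage 20 (-1.15). Both signals are low on this array, and the 2-fold difference was lost under another background correction (normexp), which gave -0.62. The Tap1 probe, at chr17:34330854-34330913 on the plus strand (mm9), carries the largest difference of the group.
Tap1: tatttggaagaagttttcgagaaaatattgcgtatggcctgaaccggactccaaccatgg
Tap2 encodes the partner subunit and is the neighbour of Tap1 in the class II region. Its signal of 72.8 at passage 20 was not well above background, and it was 128 at passage 5. Against the lowest level that counted as above background at passage 20, Tap2 was at least 1.07-fold lower. Under normexp the bound for Tap2 was 0, so neither the direction nor the size of its difference can be read.

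Tapbp encodes tapasin, which bridges TAP and the empty class I molecule and edits its peptide. Its brightest probe had 35700 at passage 20 and 30210 at passage 5 a difference of 0.59, the highest value among the 24 genes. Its other probe, with 867 at passage 20 and 1436 at passage 5, gave -0.38. The probes start at different places of chromosome 17, 34066022 and 34063096 (mm9), and whether they report different transcripts was not tested. Tapbpl encodes a tapasin relative that also edits peptides. It had 583 at passage 20 and 960 at passage 5 (-0.37). Erap1 encodes the aminopeptidase that trims peptides in the endoplasmic reticulum. Its signal was 2004 at passage 20 and 2104 at passage 5, a difference of 0.28 that became -0.03 under median centring.

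Class II was close to silent. Of 11 class II genes, Cd74 included, 10 were above background on neither array. These were H2-Aa, H2-Ab1, H2-Eb1, H2-Eb2 and H2-Ea-ps, which are the A and E chain genes and a pseudogene, the H2-DMb1 and H2-DMb2 genes of the DM peptide editor, the H2-Oa and H2-Ob genes of its modulator DO, and Cd74, the invariant chain. Cd74 had a signal of 24.3 at passage 20 and 27.4 at passage 5. A probe of H2-Ab1 had 8 spots after those flagged as outliers were left out, and none of the 8 was above background at passage 20 or passage 5. Ciita, which switches class II on, and Nlrc5, its class I counterpart, were likewise above background on neither array. A level not above background on these arrays does not show that a transcript is absent.

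The exception was H2-DMa, the alpha chain of the DM peptide editor, with 96.1 at passage 20 and 242 at passage 5. It was 1.98-fold lower at passage 20 (-0.98), just short of 2-fold. Its level at passage 20, -3.15, stood just above -3.17, the lowest level that counted as above background on that array. H2-DMa was therefore measured without its partner chain and without any other class II gene. Its probe has a listed span of chr17:34274300-34274863 on the plus strand (mm9).
H2-DMa: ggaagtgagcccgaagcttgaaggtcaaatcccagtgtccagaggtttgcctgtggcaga
Normexp background correction moved H2-DMa to -0.25.

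Markers of the cells that normally carry class II were mostly missing. Of 14 leukocyte and antigen presenting cell markers, 2 were above background at passage 20 and 4 at passage 5. The 10 markers above background on neither array included Ptprc (CD45), Itgam, Itgax, Emr1, Cd79a, Clec4f, Tyrobp, Flt3 and Aif1. Cd68, a lysosomal protein found in many cell types, and Cd3e were measured at both passages, while Csf1r and Lyz2 were above background at passage 5 only. The summed signal of the 14 probes, each divided by the array's 75th percentile, was 1.22 at passage 20 and 1.09 at passage 5, and it includes the probes at background. None of 5 endothelial markers was above background on either array. Of 6 stellate cell and fibroblast markers, Dcn alone was measured, at passage 5 only, and it was at least 15.9-fold lower at passage 20. The signal of those 6 probes, scaled and summed in the same way, was 0.210 at passage 20 and 1.96 at passage 5. The passage 5 sum came nearly all from Dcn, whose signal there was 1918 before scaling. Dcn differed in the same direction as Tap1, H2-DMa and Cd1d1, and any part of such cells in those differences was not tested. In bulk RNA, fewer cells of a type and less RNA per cell cannot be told apart. Of 9 hepatoblast markers, 8 were measured at both passages and Dlk1 at neither. Their scaled sum was 880 at passage 20 and 932 at passage 5. Of the 8, 6 were below 0, against 42.4% of all named genes, and Afp (0.09) and Krt18 (0.16) were above it. The median of the 8 was -0.19, equal to that of the MHC genes to 2 decimals. Epcam was 2.24-fold lower at passage 20, and Krt19 and Sox9, bile duct lineage markers, were each 1.43-fold lower. Hnf4a was at -0.21 by its brightest probe, and its probes ran from -0.21 to 0.52, so the direction of Hnf4a depended on the probe. The signals of Epcam were low, 151 at passage 20 and 431 at passage 5, and under normexp its difference was below 2-fold. These hepatoblast markers leaned the same way as the MHC genes, and their part in that lean was not tested.

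The H2- prefix also takes in genes of the region with other functions. H2-Ke2, now called Pfdn6, encodes a subunit of the chaperone prefoldin. It had 6090 at passage 20 and 7795 at passage 5, a difference of -0.01. H2-Ke6, an enzyme gene of steroid and fatty acid metabolism, had 1269 at passage 20 and 2021 at passage 5 (-0.32).

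**Figure D4:**
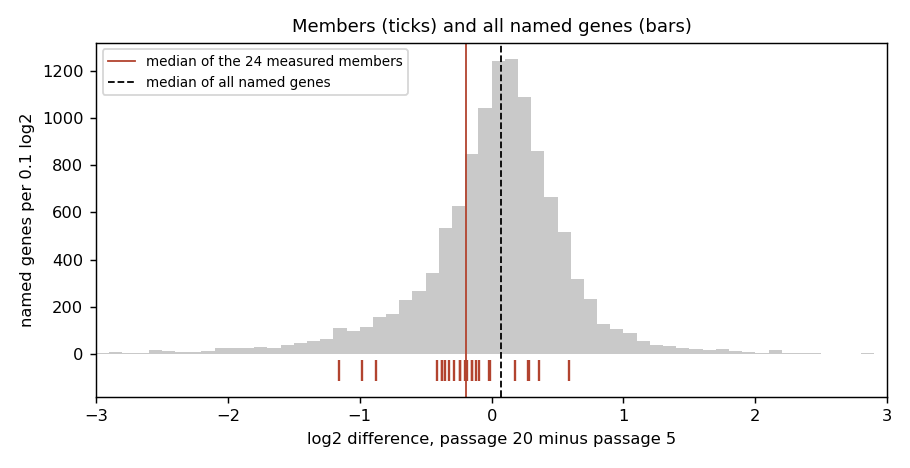
Number of named genes (grey bars) by difference in log2 level, passage 20 minus passage 5, with the 24 measured MHC and antigen processing genes as ticks below and lines at both medians. The axis shows differences up to 3 on either side. The MHC genes lie within the bulk of the named genes, with their median at -0.19 and that of the named genes at 0.07.

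By their brightest probes, the genes of the steps before and around class I loading stayed within 2-fold. Over all named genes 9.01% differed by 2-fold or more, so finding none in lists of 9 and 10 genes is near that share. The constitutive and interferon-induced proteasome subunits with the proteasome activators (9 genes) were all measured, none at 2-fold, with a median of 0.13. Within them the activator genes Psme1 and Psme2 differed by 0.50 and 0.43, and the immunoproteasome genes Psmb8 and Psmb9 by -0.38 and 0.27. The 10 genes of class I folding and peptide supply were also all measured and within 2-fold by their brightest probes, with a median of 0.14. The probes of Sec61a1 in this list ran from -0.40 to 1.16, with the brightest at 0.08. Pdia3 (ERp57), the oxidoreductase of the loading complex, was at -0.50. Calr, encoding the chaperone calreticulin, was at 0.69 by its brightest probe and 0.07 by another. Ero1l, an oxidase, stood at 0.41 by its brightest probe and -0.11 by another. Uggt1, a folding sensor, was at 0.37 and, by another probe, at 0.03. These medians depend on the scaling and are close to that of all named genes: under median centring they were -0.18 for the proteasome list and -0.17 for the folding list, when all named genes had a median of -0.24.

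Of 12 genes that bind or regulate MHC promoters, 11 were measured, none at 2-fold by its brightest probe, with a median of 0.25. The highest was Nfya, a subunit of the CCAAT-binding factor NF-Y, at 0.96. Another probe of Nfya gave 1.13, which is over 2-fold. Rfxank, a subunit of the RFX complex, was at 0.69, Creb1 at 0.67 and Nfyb at 0.48. The probes of Creb1 ran from -0.22 to 0.67, so its direction depended on the probe. Rfx5, the DNA-binding subunit of RFX, was above background on neither array. All 10 genes of interferon sensing were measured, a list that holds the interferon gamma receptor and its signalling genes and also the type I receptor genes, with a median of -0.05. Socs3, a feedback inhibitor of cytokine signalling, was 3.86-fold lower at passage 20 by its brightest probe (-1.95), while another of its probes gave 0.22. Socs1, a related inhibitor, was at 0.64, and the receptor genes Ifnar1, for type I interferons, and Ifngr2, for interferon gamma, were at -0.44 and -0.34. Another probe of Ifngr2 gave -0.85. All of these transcripts were above background at both passages.

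Of 8 genes of the lysosomal and class II processing steps, 6 were measured, with a median of -0.04. Lgmn, the protease legumain, was 2.01-fold higher at passage 20 (1.01), and it was under 2-fold in each of 6 other settings of background correction or scaling. Ifi30, a lysosomal thiol reductase induced by interferon, was at -0.80 and passed 2-fold under median centring and spike-in scaling, and the cathepsin genes Ctsl and Ctsd were at -0.60 and 0.25. A second probe of Ctsd gave -0.41, so its direction depended on the probe. Ctss, the cathepsin that removes the invariant chain in antigen presenting cells, was above background on neither array. Of 13 class I-like genes and immune ligands outside the rule, 5 were measured. Procr, the endothelial protein C receptor, which has a CD1-like fold, was 2.87-fold higher at passage 20 (1.52). Ulbp1, a ligand of the natural killer cell receptor NKG2D, was at least 1.86-fold lower, a bound that passed 2-fold in 5 of those settings. Azgp1 was at least 1.32-fold higher, and Hfe, a class I-like regulator of iron uptake, was at -0.31. The costimulatory genes Cd80, Cd86 and Cd40 and the checkpoint ligands Cd274 and Pdcd1lg2 were above background on neither array.

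Interferon and NF-kB type motifs were found in promoters of measured class I genes, and the NF-kB type also in 2 of 8 class II genes. The Y box core was found in nearly all promoters of both classes. RefSeq promoters (GRCm38.p6) were matched to 33 of the 49 genes, and 5 short motifs, chosen with the values known, were searched on both strands from 250 bases before to 50 after the annotated start. TTTCANTTC, a form of the class I interferon element, was found in 5 of 9 measured class I heavy chain genes, in 0 of 10 class I genes not above background, in 0 of 8 class II genes and in 1.83% of all 32851 promoters. GGGNNTTCC, a form of the NF-kB site, was found in 4 of the 9, 0 of the 10, 2 of the 8 and 5.82% of all. With C added at its 3′ end it was found in 3 of the 9, 0 of the 10, 2 of the 8 and 1.75% of all. GAAANNGAA, the interferon response element core, was found in 2 of the 9, 0 of the 10, 0 of the 8 and 8.56% of all, and with A added at its 3′ end in 2 of the 9 and 3.44% of all. It shares GAAA with the reverse complement of TTTCANTTC, so a single stretch can match both. CCAAT, the Y box core bound by NF-Y, was found in 8 of the 9, 9 of the 10, 8 of the 8 and 37.4% of all. TGACG, the core of the X2 box, was found in 6 of the 9, 4 of the 10, 1 of the 8 and 20.8% of all. A match is a description of the letters and not a site of binding, and neighbouring class I genes are copies of each other, so these are not independent cases.

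The promoters of the classical heavy chains, the light chain and Qa-1 are shown because those genes carried bright signals at both passages. Each run is the 200 bases before the annotated start, 5′ to 3′ on the gene's strand. Capitals mark GGGNNTTCC, TTTCANTTC, GAAANNGAA and CCAAT on either strand. The windows are chr17:34000348-34000547 on the minus strand for H2-K1, chr17:35262894-35263093 on the plus strand for H2-D1, chr2:122147487-122147686 on the plus strand for B2m and chr17:36032702-36032901 on the minus strand for H2-T23.
H2-K1: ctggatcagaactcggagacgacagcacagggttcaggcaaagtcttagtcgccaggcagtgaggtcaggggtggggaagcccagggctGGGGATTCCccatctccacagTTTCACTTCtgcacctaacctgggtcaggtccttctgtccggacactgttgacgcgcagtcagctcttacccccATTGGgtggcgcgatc
H2-D1: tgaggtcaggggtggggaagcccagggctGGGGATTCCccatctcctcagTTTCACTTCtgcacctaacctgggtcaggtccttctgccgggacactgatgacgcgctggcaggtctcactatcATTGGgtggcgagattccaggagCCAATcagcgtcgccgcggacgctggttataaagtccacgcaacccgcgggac
B2m: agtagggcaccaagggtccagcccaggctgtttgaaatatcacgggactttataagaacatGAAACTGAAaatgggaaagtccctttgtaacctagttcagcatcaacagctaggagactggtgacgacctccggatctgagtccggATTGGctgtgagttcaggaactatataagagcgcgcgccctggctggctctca
H2-T23: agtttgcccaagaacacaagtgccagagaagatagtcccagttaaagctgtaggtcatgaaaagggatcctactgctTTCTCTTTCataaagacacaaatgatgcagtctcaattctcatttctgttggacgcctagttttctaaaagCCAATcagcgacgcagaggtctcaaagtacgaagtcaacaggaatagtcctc
In H2-K1 the GGGNNTTCC match begins 111 bases before the start and the TTTCANTTC match begins 90 bases before it. H2-D1 has the same pair of motifs with the same spacing, beginning 171 and 150 bases before its start. B2m and H2-T23 match neither pattern and instead hold GAAANNGAA, with the most upstream base 139 and 123 bases before the start. Other forms of the NF-kB site were not searched, so the lack of a match does not show that B2m or H2-T23 lacks such a site. Under the scaling used here H2-K1, H2-L and B2m were slightly below 0 and H2-T23 slightly above it.

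**Figure D5:**
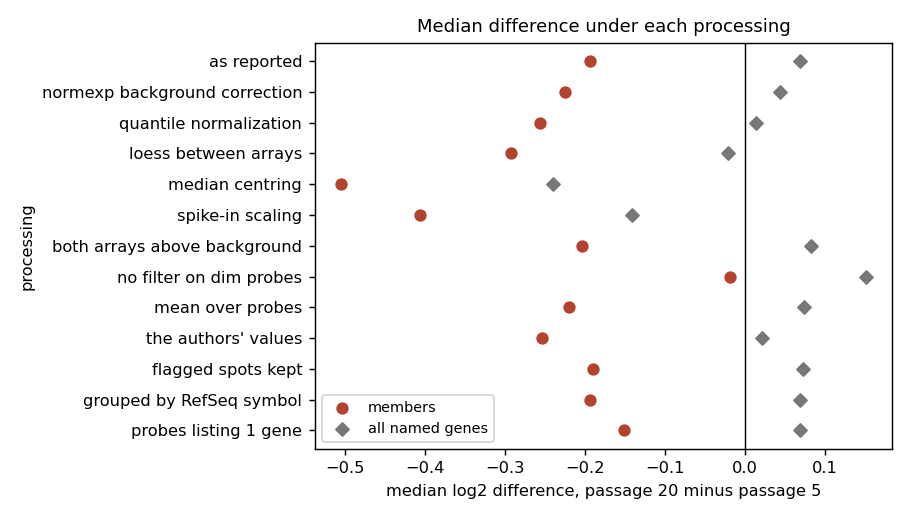
Median difference, passage 20 minus passage 5, of the MHC and antigen processing genes and of all named genes under each processing setting. The member median runs from -0.50 under median centring to -0.02 without a filter on dim probes, and in every setting it lies below the median of all named genes.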

How the data were processed

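The deposited intensity of each spot was, per the file headers, made by the authors in Feature Extraction 10.7.3.1. It is the processed Cy3 signal, already corrected for background, and probe positions are on mm9. The above-background flags were deposited with it. The authors' deposited log2 table had a median of 6.31 in both columns and, across probes, a Pearson r of 0.9999 with log2 of the scanner's signal. Its software was not given in the sources used here.

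Spots flagged as outliers were left out (5 of the genes' spots), spots of a probe were averaged, and log2 intensity was set against each array's 75th percentile. A probe was above background when over 0.5 of its spots were flagged so. Each gene took its brightest probe, and a probe above background on 1 array gave a bound from the lowest level above background, -3.17 at passage 20 and -3.32 at passage 5. RefSeq matched 74 of 76 probes by name or accession. The exceptions were the H2-L probes. Every measured member was named, with up to 4 genes of each companion list that had the largest differences. Members and lists were chosen with earlier results of these data known. With 1 array per passage there was no test, and the number of arrays limits the precision. The steps were tested on simulated data, in which only genes above the 75th percentile at passage 5 were changed. That simulation did not cover bounds or changes in genes near background. Alternatives were normexp background correction with an offset of 50, quantile, loess, median and spike-in scaling, other filters, probe rules and fold thresholds, and the authors' table. Python 3.11.15 with numpy 2.4.6, pandas 2.3.3 and matplotlib 3.10.9, and R 4.3.3 with limma 3.58.1, were used.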

Additional observations from a re-analysis of the deposited data

How the results depend on the processing

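Tap1 was the single gene at least 2-fold lower, and no gene was 2-fold higher. The count lower was 0 under normexp (Tap1 -0.62) and 0 at a 4-fold threshold. It was 2 (H2-DMa and Tap1) under quantile, loess and the authors' values. It was 3 (with Cd1d1) under median centring, under spike-in scaling and at a 1.5-fold threshold, and 4 with no filter on dim probes. The count higher was 1 at 1.5-fold (Tapbp) and 2 with no filter (H2-M10.6 and H2-T24). The member median, -0.19, was -0.29 under loess, -0.50 under median centring, -0.41 under spike-in scaling and -0.018 with no filter, when the median of all named genes was -0.02, -0.24, -0.14 and 0.15. The gap between the medians ran from -0.29 to -0.17. Named genes counted 2-fold higher and lower, 387 and 677, were 254 and 398 under normexp, 302 and 799 under quantile, 269 and 843 under loess, 195 and 1127 under median centring, 235 and 964 under spike-in scaling, 306 and 797 by the authors' values, 267 and 428 with both arrays above background, and 1292 and 1287 with no filter. Of the 24 genes, 19 kept their sign under every alternative that gave them a value, of 12 in all, 1 of which (probes whose accessions name 1 gene) was chosen after seeing the data and gave H2-Q7 no value. The exceptions were Erap1, H2-M3, H2-Q2, H2-T23 and Tap2. For a gene with 1 measured probe, several of the filter and probe alternatives reuse the same value and could not change its sign. The genes that kept their sign include H2-Q10, H2-T22 and Tapbp, whose single probes fall on both sides of 0. The cause of the shifts between settings was not tested. Depth here is signal over background, which limits Tap1, Tap2 and H2-DMa most. No paired analysis was possible because each passage has 1 array, and for the same reason no replicate could be left out.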

Other observations

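Some MHC probes share sequence with probes of other gene names. These names, outside the rule, were HQ258995, whose probe is identical to an H2-Q10 probe over 35 of 35 overlapping bases and gave -0.28, and C920025E04Rik, whose probe is identical to an H2-Q2 probe at 45 of 50 bases and gave 0.32. H2-T24 had a signal of 98.5 at passage 20 and 29.6 at passage 5, and H2-Ab1 had 20.7 at passage 20 and 80.5 at passage 5 on its brightest probe. Neither was well above background on either array.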
